A study of Bos taurus with 12 samples.

Results

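The genes described here mark B cells and plasma cells or carry immunoglobulin across the mammary epithelium: *CD79A*, *CD79B*, *MS4A1*, *POU2AF1*, *IRF4*, *PRDM1*, *MZB1*, *JCHAIN* and *PIGR*. Array probes were assigned to them when the RefSeq accession given with the probe, without its version, belonged to the symbol or a synonym of the gene in the bovine RefSeq table. Of the 9 genes, 8 were matched, with 17 probes among the 43653 probes and 12639 named genes of the array. No probe accession matched *CD79B*, the partner chain of *CD79A*, which was not analysed here.

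Gene expression was measured in the mammary gland (MG) of 12 multiparous Holstein cows, whose diets began at 24 ± 3 days in milk. The 6 control cows (CONT) received a lactation diet for ad libitum intake, and the 6 restricted cows (REST) were fed for 4 days a ration in which barley straw made up 48% of dry matter. On day 3, every cow of both groups was given 50 µg of lipopolysaccharide (LPS), a cell wall component of Gram-negative bacteria, into 1 healthy rear gland of the udder, and the biopsy was taken 24 h later. The comparison therefore addresses the diet in an inflamed gland, and no unchallenged gland was part of it. Each biopsy is bulk tissue of 1 gland, with epithelium, stroma, vessels and leukocytes together. Cows are called below by the animal numbers of their labels.

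B cells recognise antigen through a surface immunoglobulin that signals by way of the CD79A and CD79B chains, and they carry the membrane protein encoded by *MS4A1* (CD20). When they mature into plasma cells, the transcription factors IRF4 and PRDM1 (Blimp-1) replace the B cell program by antibody secretion, MZB1 assists immunoglobulin folding in the endoplasmic reticulum, and the J chain joins immunoglobulin units into polymers. In the MG, the epithelial receptor encoded by *PIGR* binds polymeric immunoglobulin with its J chain on the basal side and releases it with a receptor fragment into milk.

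The array values are log2 signals minus the 75th percentile of the array, so that a value of 0 is the level of that percentile. The percentile itself lay between 577 and 1184 intensity units in CONT and between 387 and 1074 in REST. Feature Extraction, the image software, called 57.6 to 76.0% of the probes well above background in CONT and 63.2 to 78.1% in REST. The 12 arrays lay on 3 slides of 4 arrays, with 3 CONT and 1 REST on slide 1, 1 and 3 on slide 2, and 2 and 2 on slide 3. Negative control spots were brighter on slide 1 (array medians 7.07 to 17.3) than on slides 2 and 3 (3.44 to 4.98), which bears on dim probes. Of the 17 probes, 10 were detected in this sense in all 12 cows, among them the brightest probe of 6 of the 8 genes, all but *MS4A1* and *POU2AF1*.

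None of the 8 genes passed the test between the diets. With limma and Benjamini-Hochberg adjustment over all probes, 0 of the 17 probes were below 0.05, as were 0% of the 43653 probes of the array, and the lowest adjusted p of any of the 17 was 1.00. At an unadjusted p below 0.05, 2 of the 17 probes passed, the brightest probes of *MS4A1* and *POU2AF1*, against 2.61% of all probes. Counted as genes by the brightest probe, these were 2 of 8, against 2.64% of all named genes, and both were higher in REST, against 1.62% of the named genes. One of them, *MS4A1*, was not well above background in any CONT cow, and a filter on dim probes left 1 of 7 genes. The median log2 fold change (FC, REST minus CONT) of the 8 genes was 0.10, beside -0.04 for all named genes, with 5 genes higher and 3 lower. The 2 genes at an unadjusted p below 0.05 became 1 of 8 with the slide as a term (*MS4A1*) and 0 with normexp, another background correction of the spots. They were also 0 without CONT cow 8027 and REST cow 1018, left out together once it was seen that both lie low for several genes, and the median log2 FC was then 0.06. In no probe did the cows of one diet lie apart from those of the other, a separation found in 0.119% of all probes. In bulk tissue, fewer cells of a type and less RNA per cell cannot be told apart, which holds for every value below.

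**Figure D1:**
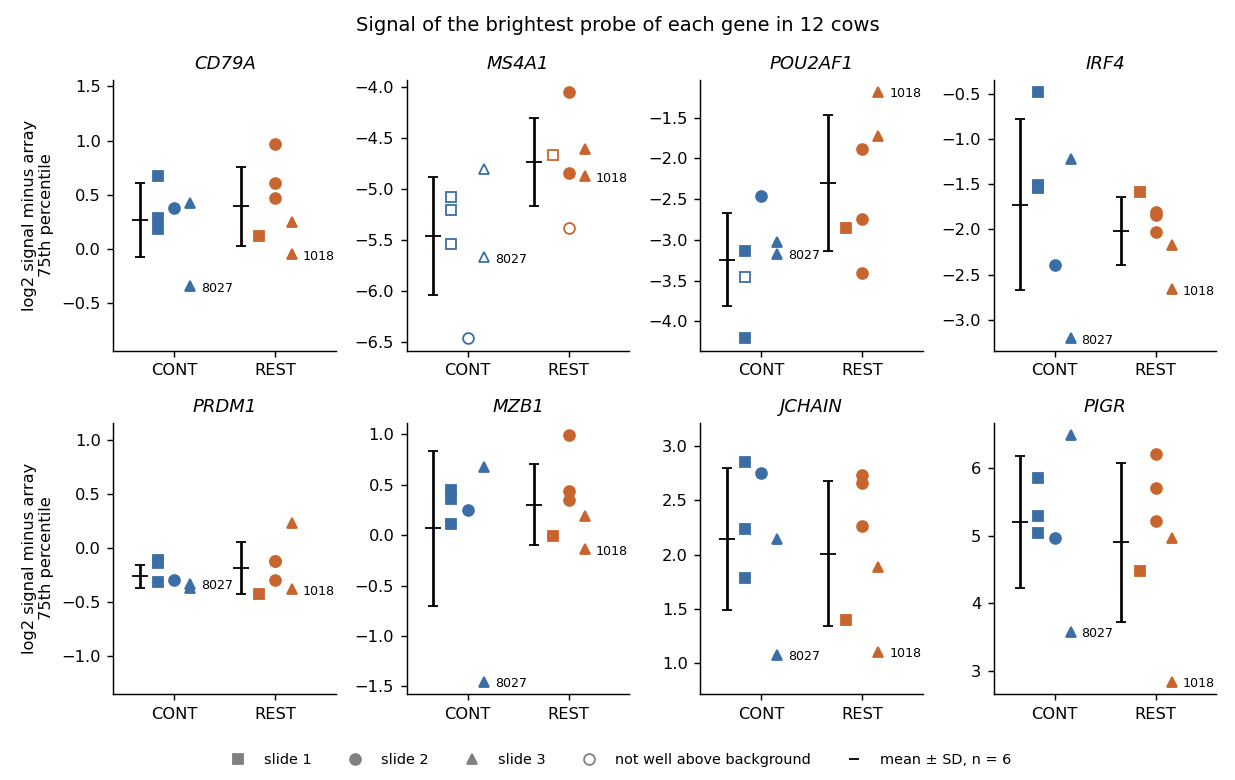
Log2 signal minus the array's 75th percentile (vertical axis) for the brightest probe of each gene in the 6 CONT and 6 REST cows. Symbols give the slide, open symbols a spot not well above background, and bars the mean ± SD. The diets overlap in every panel, and CONT cow 8027 and REST cow 1018 are the lowest cows of their groups for *CD79A*, *IRF4*, *MZB1*, *JCHAIN* and *PIGR*.

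*CD79A*, the signalling chain of the B cell receptor, was detected in every cow. Its log2 signal had a lowest value of -0.34, a median of 0.33 and a highest value of 0.67 in CONT, and of -0.05, 0.36 and 0.97 in REST. The ranges overlapped, with 1 REST cow above every CONT cow and 1 CONT cow below every REST cow. The log2 FC was 0.13 ± 0.21 (SE), or 0.04 with the slide as a term and 0.0047 without CONT cow 8027, with a 95% confidence interval of -0.33 to 0.59, and limma's unadjusted p of 0.561 stood beside an exact permutation p of 0.556. A second *CD79A* probe was well above background in only 1 CONT and 2 REST cows, and it did not follow the bright probe across cows (Pearson's r = -0.06).

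*MS4A1*, which encodes CD20 on mature B cells, was measured close to background. Its brighter probe was not well above background in any CONT cow and was so in 4 REST cows. In CONT the measured log2 signal was -6.46 at the lowest, -5.37 at the median and -4.81 at the highest. In REST the corresponding values were -5.38, -4.75 and -4.05. On these measured values, 3 REST cows lay above every CONT cow and all 6 above the CONT mean, although the lowest REST cows were within the CONT range. Cow 0078, among those 3, and cow 7043 were not well above background, so their ranks are not settled. Because the CONT values and those of these 2 REST cows are no more than bounds, no fold is given. The measured means were -5.46 ± 0.58 in CONT and -4.74 ± 0.43 in REST (SD, n = 6), with an adjusted p of 1.00 by limma. The fit on these measured values gave an unadjusted p of 0.0252 (exact permutation p = 0.0281), but it sets REST against a group at background. With normexp in place of the correction by Feature Extraction, the unadjusted limma p was 0.502. The other *MS4A1* probe was not well above background on any of the 12 arrays. The unadjusted p exceeded 0.05 without CONT cow 9040 (0.0534) and without REST cow 0049 (0.0594).

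*POU2AF1* encodes a coactivator that B cells need, with octamer-binding factors, to form germinal centres. The log2 signal of its single probe was -4.21 at the lowest, -3.16 at the median and -2.47 at the highest in CONT. In REST it was -3.41, -2.32 and -1.19. The 3 highest cows of the study, 1018, 1058 and 7043, were all REST, whereas REST cow 0049 lay below 4 of the CONT cows. The log2 FC was 0.94 ± 0.38 (SE), a 1.92-fold higher signal with an interval of 1.08 to 3.42, at an unadjusted p of 0.0295 and an exact permutation p of 0.0476. The adjusted p was 1.00 by limma. Within slides the difference was 0.75 on slide 1, -0.21 on slide 2 and 1.64 on slide 3, and with the slide as a term it was 0.82 (unadjusted limma p = 0.0524, against an exact permutation p of 0.0476 without that term). With normexp it was 0.45. The probe was well above background in 5 CONT and 6 REST cows, and the unadjusted p lay between 0.0522 and 0.0703 when CONT cow 1076 or 1024 or REST cow 1018, 7043 or 1058 was left out.

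*IRF4*, a factor needed when B cells become plasma cells and also used by T cells, was lower in REST by 0.29 on the log2 scale, well within its spread. The log2 signal was -3.21 at the lowest, -1.52 at the median and -0.48 at the highest in CONT. In REST it was -2.66, -1.93 and -1.59, inside the CONT range in every cow. The CONT cows varied more (SD 0.95) than the REST cows (SD 0.37), and the ends of the CONT range were cow 8027 and cow 1024. The unadjusted p was 0.465, with an exact permutation p of 0.498, and the log2 FC was -0.05 with the slide as a term. It was -0.59 without CONT cow 8027 and -0.04 without CONT cow 1024. A dim second probe was well above background in only 1 cow of each group, so its log2 FC (0.31, opposite in sign) is mostly of background values.

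*PRDM1*, the repressor that closes the B cell program, had 4 probes, all of them higher on average in REST. The brightest probe had a log2 signal of -0.37 at the lowest, -0.31 at the median and -0.11 at the highest in CONT. In REST the values were -0.43, -0.21 and 0.23. The log2 FC of 0.08 (95% confidence interval -0.24 to 0.39) left REST cow 1058 as the only cow above the CONT range, and without that cow the difference was -0.01. The other 3 probes gave 0.18, 0.46 and 0.38, with unadjusted p-values of 0.222, 0.0684 and 0.146 (exact permutation p = 0.0779, 0.0736 and 0.162). In the first of these, which was well above background in every cow, 4 REST cows lay above every CONT cow. The 2 dimmer probes followed each other across cows (r = 0.64) but not the brightest one (r = 0.14 and 0.11).

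*MZB1*, the endoplasmic reticulum cochaperone of B cells and plasma cells, was measured by 1 probe above background in every cow. Its log2 signal was -1.45 at the lowest, 0.30 at the median and 0.68 at the highest in CONT. In REST it was -0.14, 0.27 and 0.99. A single cow, CONT cow 8027, lay far below the rest, with 0.12 as the next lowest CONT value. The log2 FC was 0.24 (95% confidence interval -0.49 to 0.96) with that cow and -0.07 without it.

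*JCHAIN*, which encodes the J chain of polymeric immunoglobulin, was not separated by diet. The log2 signal of its brighter probe was 1.08 at the lowest, 2.19 at the median and 2.85 at the highest in CONT. In REST it was 1.11, 2.07 and 2.74, a range that lay wholly inside that of CONT. The log2 FC was -0.13 ± 0.36 (SE), or 0.911-fold with an interval of 0.533 to 1.56, at an unadjusted p of 0.714 (exact permutation p = 0.745). The second probe followed the first closely across cows (r = 0.957) and gave a log2 FC of -0.28. The log2 FC was -0.37 with the slide as a term and -0.35 without CONT cow 8027, but 0.01 without CONT cow 0055 and 0.05 without REST cow 1018.

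*PIGR*, the epithelial transporter, gave a strong signal in every cow and the widest range of the genes detected throughout. The brightest of its 3 probes had a log2 signal of 3.58 at the lowest, 5.16 at the median and 6.49 at the highest in CONT. In REST it was 2.84, 5.09 and 6.21. The medians were close, and REST cow 1018 was the only cow of that group below the CONT range. The log2 FC was -0.30 ± 0.57 (SE), 0.812-fold with an interval of 0.346 to 1.91. The unadjusted p was 0.606 (exact permutation p = 0.632), and the log2 FC was 0.11 without REST cow 1018 and -0.51 with the slide as a term. The second probe repeated the first nearly exactly (r = 0.999, log2 FC of -0.34), and the third followed both (r = 0.917 and 0.910) at a log2 FC of 0.17.

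Within slides, *JCHAIN* was lower in REST on all 3, with REST minus CONT at -0.90, -0.19 and -0.12 on slides 1, 2 and 3. *MS4A1* is not compared within slides, since no CONT spot was well above background and, on slide 1, no spot of either diet was. *PIGR* differed by -0.91 on slide 1, 0.74 on slide 2 and -1.13 on slide 3, so that its sign depended on the slide. *CD79A* (-0.26, 0.30 and 0.06), *MZB1* (-0.31, 0.34 and 0.41), *PRDM1* (-0.24, 0.12 and 0.28) and *IRF4* (-0.41, 0.50 and -0.20) also changed sign. These values carry no test, since slide 1 held 1 REST cow, slide 2 held 1 CONT cow and slide 3 held 2 cows of each diet.

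**Figure D2:**
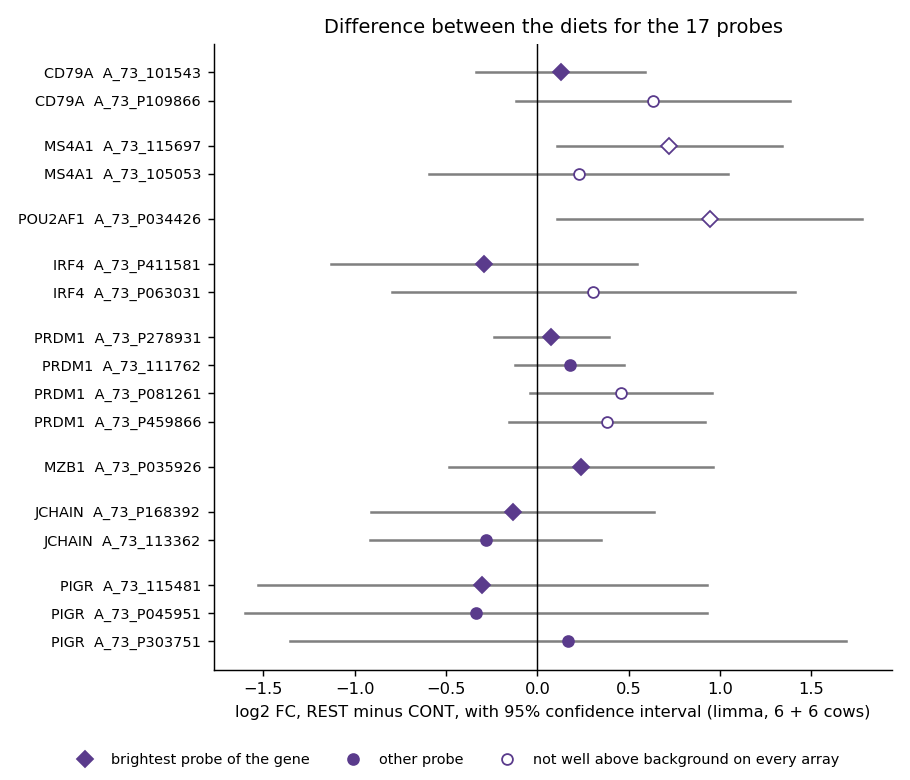
Log2 FC, REST minus CONT, with its 95% confidence interval (horizontal axis, limma, 6 cows in each diet) for the 17 probes. Diamonds are the brightest probe of a gene, circles other probes, and open symbols probes not well above background on every array. The interval excludes 0 only for the brightest probes of *MS4A1* and *POU2AF1*, both of them open symbols, and these did not pass the adjusted test. For *MS4A1* no CONT spot was well above background, so its plotted difference and interval are not those of a measured fold.

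The spread between cows was wide for several of these genes. Within a diet, the log2 signal of *PIGR* had an SD of 1.08 between cows, a spread larger than that of 96.7% of the 9001 named genes detected on all arrays, whose median SD was 0.33. From the lowest to the highest of the 12 cows, *PIGR* spanned 12.6-fold. *IRF4* (SD 0.72), *JCHAIN* (0.66) and *MZB1* (0.61) exceeded the spread of 88.8, 85.5 and 82.6% of genes. *CD79A* (0.35) was near the median of all genes, and *PRDM1* (0.19) varied less than most, with only 12.6% of genes below it.

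The same cows lay at the ends of the range for different genes. CONT cow 8027 and REST cow 1018 were both the lowest of their groups for 5 of the 8 genes, *CD79A*, *IRF4*, *MZB1*, *JCHAIN* and *PIGR*, which was so for 15.7% of the 9001 genes. REST cow 0049 was the highest of its group for *CD79A*, *MS4A1*, *MZB1*, *JCHAIN* and *PIGR*. No share over all genes was computed for this order, and the array of cow 0049 had the lowest 75th percentile of all arrays (387 intensity units). *POU2AF1* had another order, with cow 1018 highest and cow 0049 lowest in REST. Among the REST cows, the 3 on slide 2 lay above the other 3 for 4 genes, *CD79A*, *MZB1*, *JCHAIN* and *PIGR*, an order shown by 11.8% of the 9001 genes. Those 3 arrays also had the lowest 75th percentiles of the REST arrays, 387 to 569 intensity units against 735 to 1074. The part of slide and array intensity in these levels was not tested beyond the values given next.

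Across the 12 cows, *CD79A*, *MZB1*, *JCHAIN* and *PIGR* were correlated with each other, in part through a few cows. Of the 28 pairs of the 8 genes, 6 had a Benjamini-Hochberg adjusted p below 0.05 for Pearson's r by permutation, and these were the pairs among those 4 genes. Their r was 0.656 or more, a level reached by 6.36% of all pairs of the 9001 genes detected on all arrays, and 9 of the 28 pairs had r over 0.5, against 14.2% of all pairs. Among the 6 genes detected in every cow, 9 of 15 pairs had r over 0.5. *CD79A* had r = 0.855 with *MZB1* (permutation p = 0.00017, adjusted 0.00476; Spearman's rho = 0.762, p = 0.00543), and r = 0.654 without the 2 cows farthest from its median. With *JCHAIN* its r was 0.798 (permutation p = 0.00129, adjusted 0.0181) and its rho 0.727 (p = 0.00965), and r remained 0.713 without those cows. With *PIGR* it had r = 0.734 (permutation p = 0.00715, adjusted 0.0374) and rho = 0.671 (p = 0.0205), and r = 0.603 without them. The adjusted p of rho was 0.0760, 0.0901 and 0.144 for these 3 pairs.

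*MZB1* and *PIGR* were the one pair that also passed by rank, with r = 0.763 (permutation p = 0.00509, adjusted 0.0374), rho = 0.881 (p = 0.00044, adjusted 0.0123) and r = 0.886 without the 2 farthest cows. The remaining 2 pairs rested on such cows. *MZB1* and *JCHAIN* had r = 0.656 (permutation p = 0.00781, adjusted 0.0374) but 0.430 without cows 0049 and 8027, and rho = 0.441 (p = 0.155, adjusted 0.361). *JCHAIN* and *PIGR* had r = 0.713 (permutation p = 0.00802, adjusted 0.0374) but 0.313 without cows 1018 and 8027, and rho = 0.545 (p = 0.0705, adjusted 0.262). After the means of diet and slide were removed, r was between 0.608 and 0.820 for the 6 pairs, and after a line on the log2 75th percentile of the array it was between 0.414 and 0.704. Without cows 8027 and 1018 it was 0.467 for *CD79A* with *PIGR*, and between 0.313 and 0.840 over the 6 pairs. Within the 6 CONT cows r was between 0.436 and 0.908 for these pairs and within the 6 REST cows between 0.860 and 0.972, given as a description.

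No pair with *POU2AF1*, *MS4A1*, *PRDM1* or *IRF4* passed the adjustment. *POU2AF1* had r = -0.217 with *CD79A*, -0.130 with *MZB1*, -0.226 with *JCHAIN* and -0.537 with *PIGR*, none with an adjusted permutation p below 0.05. *MS4A1*, CD20, had r = 0.297 with *CD79A*, the other B cell surface gene, and its signal was near background in most cows. After diet and slide means were removed, *MS4A1* had r = 0.777 with *PIGR*, 0.662 with *CD79A*, 0.580 with *MZB1* and 0.539 with *JCHAIN*. After a line on the log2 75th percentile of the array, the same pairs had 0.019, -0.116, 0.098 and -0.457. All these *MS4A1* values rest on a probe well above background in no CONT cow and in 4 REST cows. With diet and slide means removed, *PRDM1* had r = 0.589 with *JCHAIN*, and *POU2AF1* had -0.725 with *MS4A1* and -0.536 with *PIGR*. *IRF4* had r = 0.645 with *MZB1*, 0.596 with *CD79A* and 0.596 with *PIGR* (adjusted permutation p = 0.125, 0.133 and 0.133). These became 0.806, 0.878 and 0.695 after diet and slide means were removed, and 0.091, 0.134 and 0.105 without cows 8027 and 1018.

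**Figure D3:**
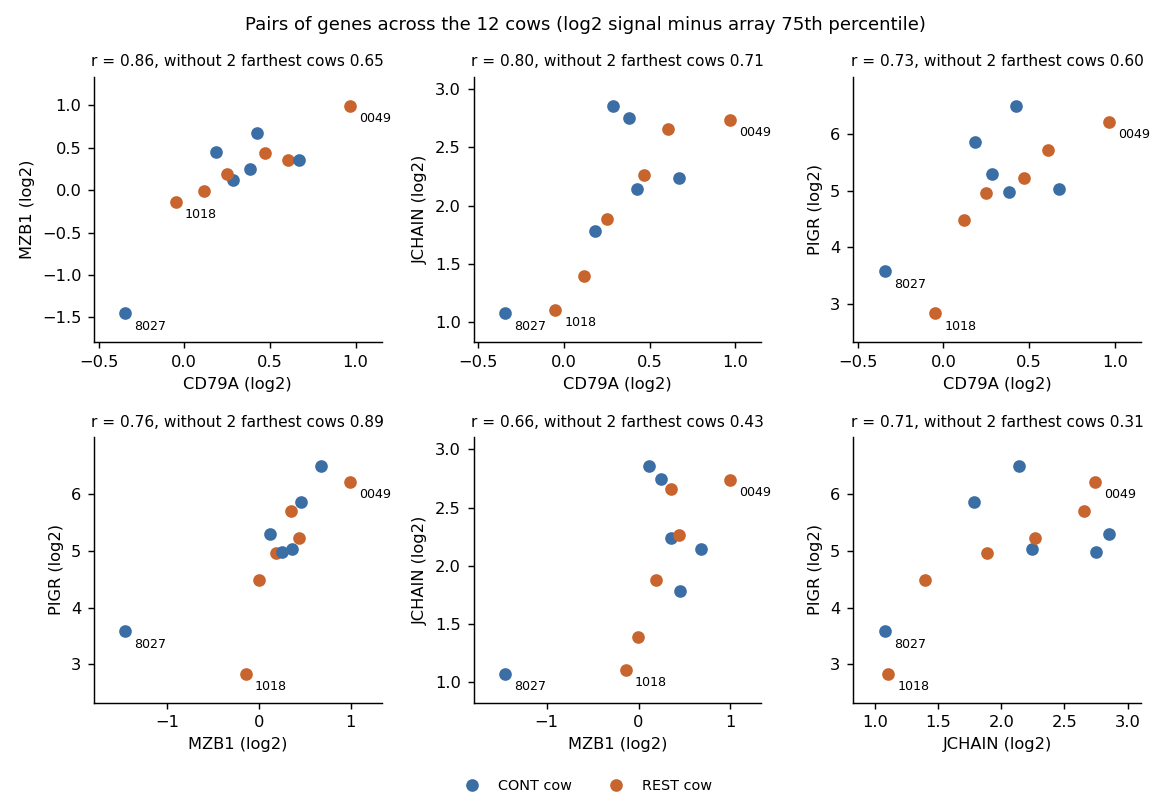
Log2 signals minus the array's 75th percentile of pairs of genes in the 12 cows, CONT blue and REST orange, with Pearson's r over all cows and without the 2 cows farthest from the median of the gene on the horizontal axis. Cows 8027 and 1018 lie at the low end of each panel and cow 0049 at the high end, and r drops to 0.43 for *MZB1* with *JCHAIN* and to 0.31 for *JCHAIN* with *PIGR* when the farthest cows are left out.

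The levels were also set beside the array intensity and beside the mean level of 10 lists of cell type markers, 88 relations in all. After adjustment over these, 1 passed for Pearson's r, that of *IRF4* with the adipocyte list (r = 0.874, permutation p = 0.00011, adjusted 0.00968; rho = 0.811, p = 0.00222, adjusted 0.0977). It was 0.840 without the 2 farthest cows, but only 1 of the 5 adipocyte markers was well above background on every array of a diet. *CD79A* had r = -0.777 with the log2 75th percentile of the array (permutation p = 0.00329, adjusted 0.0965; rho = -0.685, p = 0.0176), and -0.575 without the 2 farthest arrays. *MZB1* had r = -0.686, *JCHAIN* -0.607 and *PIGR* -0.527 with it (adjusted permutation p = 0.148, 0.182 and 0.238), and 18.1% of the 9001 genes were below -0.5.

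The general leukocyte level ran opposite in sign to *CD79A*, *MZB1* and *PIGR*, without passing the adjustment. Against the list of 8 pan-leukocyte markers, *PIGR* had r = -0.654 (permutation p = 0.0203, adjusted 0.150) and rho = -0.818 (p = 0.00165, adjusted 0.0977), and r = -0.581 without the 2 farthest cows. *CD79A* had r = -0.601 and *MZB1* r = -0.517 with that list (adjusted permutation p = 0.182 and 0.240), and -0.181 and -0.331 without the 2 farthest cows, whereas *POU2AF1* had r = 0.560 (adjusted 0.230). With the T cell list, *MZB1* had r = -0.755 (adjusted permutation p = 0.0717) and *CD79A* r = -0.752 (adjusted 0.0990), and -0.444 and -0.432 without the 2 farthest cows. With the luminal epithelium list, *JCHAIN* had r = 0.670, *MZB1* 0.666, *PIGR* 0.652 and *CD79A* 0.62, with adjusted permutation p-values of 0.150, 0.148, 0.150 and 0.165. Without the 2 farthest cows these were 0.655, 0.607, 0.675 and 0.517, and without cows 8027 and 1018 they were 0.477, 0.470, 0.496 and 0.365. *MZB1* had r = 0.844 with the endothelium list and *CD79A* -0.686 with the stroma list (adjusted permutation p = 0.150 for both). Without the 2 farthest cows, this last pair of values became -0.10 and -0.33. Cows 8027 and 1018, the lowest of their groups in *MZB1*, *JCHAIN* and *IRF4*, had pan-leukocyte levels of 2.90 and 2.95, inside the ranges of CONT (2.13 to 3.21) and REST (1.29 to 3.36). Their T cell levels, 0.28 and 0.09, were the highest of their groups. Cow 8027 was the lowest CONT cow for the luminal epithelium list (5.72) and the endothelium list (-1.18, against 0.69 to 0.95 in the other CONT cows). In contrast, cow 1018 had an endothelium level of 1.13, inside the REST range of 0.31 to 1.29. *CLDN5* had no value in a REST cow, whose endothelium level is the mean of the other markers and not strictly comparable. Both cows were the lowest of their groups for the adipocyte list (-3.46 and -2.73).

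The named genes whose levels followed *JCHAIN* most closely over the 12 cows, among 9000 genes detected on all arrays, were *MIB1* (r = 0.894), *CLDN19* (0.892), *FST* (0.883), *HEYL* (0.870) and *FAM8A1* (0.830). For *PIGR* they were *C3H1orf210* (r = 0.960), *TRIM46* (0.941), *MRPL53* (0.939), *GGT1* (0.934) and *MAPKAPK5* (0.933). These are descriptions of rank among many genes and carry no test. Without cows 8027 and 1018, the 5 genes of *JCHAIN* had r between 0.678 and 0.847 and those of *PIGR* between 0.80 and 0.91.

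Other genes of the pathway were read from 8 lists, and markers of other cells from 10. Of their 205 genes, 169 were matched, 0 passed the adjusted test by limma, and 9 had an unadjusted p below 0.05, 5.33% against 2.64% of all named genes. Downstream of the B cell receptor, 4 of 12 matched genes were higher and 8 lower in REST, the median log2 FC being -0.06 and none below 0.05. *SYK*, the kinase that CD79A recruits, had a log2 FC of 0.30 (unadjusted limma p = 0.414), and *DAPP1*, an adaptor of phosphoinositide signalling, -0.60 (p = 0.124, exact permutation p = 0.177), lower than the CONT mean in all 6 REST cows. Among transcription factors of the B lineage, 7 of 10 were higher and 3 lower (median 0.14), with none below 0.05. *EBF1*, an early B lineage factor also active in adipocyte and stromal precursors, had a log2 FC of 0.43 (p = 0.0583, exact permutation p = 0.0541) and was above the CONT mean in all 6 REST cows, and *SPI1*, which encodes PU.1, had -0.32.

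The plasma cell and secretory list was split, with 9 of 16 genes higher, 7 lower and a median of 0.01. *SDC1*, which encodes the plasma cell and epithelial proteoglycan syndecan 1, had a log2 FC of -0.38, and *CD38*, an ectoenzyme of plasma cells and other leukocytes, 0.46, neither with an unadjusted p below 0.05. None of the 11 genes of the immunoglobulin list was matched, so that immunoglobulin transcripts themselves were not analysed here. In the list of IRF4 and PRDM1 partners, 7 of 12 were higher and 5 lower (median 0.01), with a log2 FC of -0.19 for *IRF8*, a close relative of *IRF4*, and 0.20 for *MYC*, a target of PRDM1 repression.

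Signals that recruit and sustain B cells held 2 genes with an unadjusted p below 0.05, both lower in REST. *CD40*, the receptor through which T cells help B cells, was at 0.20 ± 0.25 in CONT and -0.33 ± 0.47 in REST (SD, n = 6), a log2 FC of -0.54 (p = 0.0304, exact permutation p = 0.0238). *CCL21*, a chemokine that guides CCR7-bearing lymphocytes and dendritic cells, was at -0.06 ± 1.07 in CONT and -1.31 ± 1.07 in REST, a log2 FC of -1.24 (p = 0.0461, exact permutation p = 0.0693). All 6 REST cows lay below the CONT mean for both genes, the ranges overlapped, and neither passed the adjusted test. Over the list, 7 of 17 genes were higher and 10 lower, with a median of -0.07.

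In immunoglobulin transport apart from *PIGR*, 4 of 9 genes were higher and 5 lower (median -0.01). *EXOC4*, a subunit of the exocyst that tethers vesicles to the plasma membrane, was at 2.20 ± 0.25 in CONT and 2.55 ± 0.11 in REST (SD, n = 6), with a log2 FC of 0.36 (p = 0.0299, exact permutation p = 0.00866), above the CONT mean in all 6 REST cows. Of the genes known to induce *PIGR* or to signal to it, 8 of 19 were higher and 11 lower (median -0.04). The one below 0.05 was *USF1*, a factor that binds E-box motifs, including that of the *PIGR* promoter, with a log2 FC of 0.46 (p = 0.0379, exact permutation p = 0.0238). Neither passed the adjusted test.

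**Figure D4:**
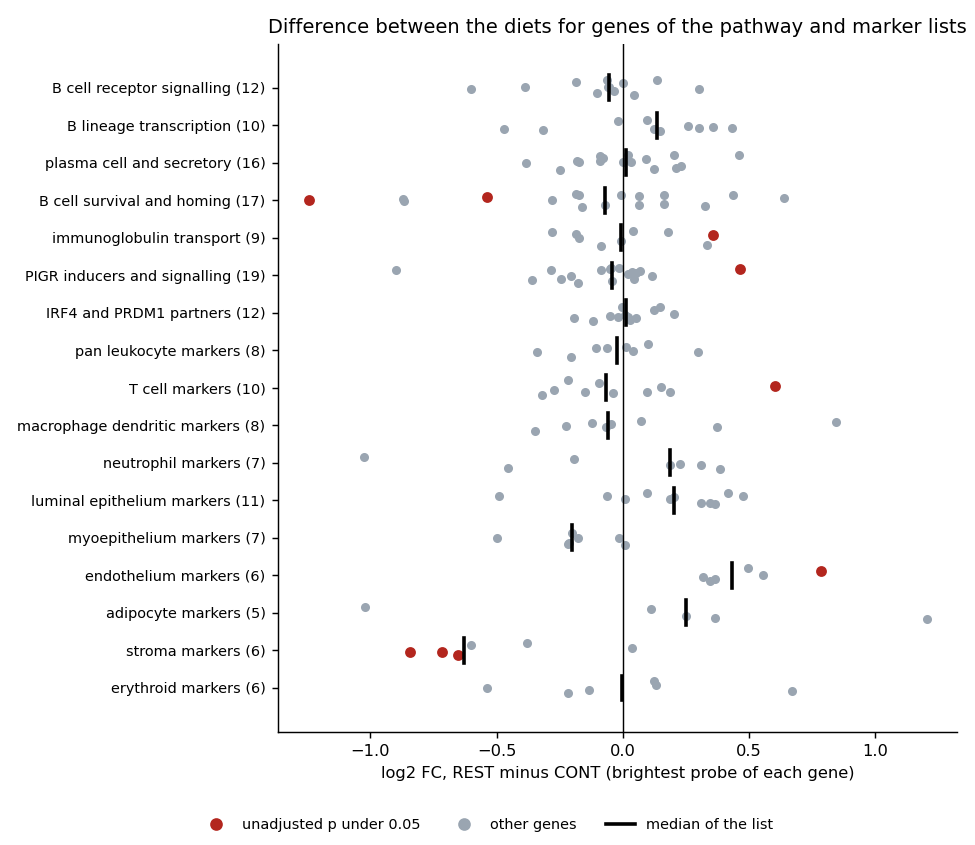
Log2 FC, REST minus CONT (horizontal axis), of the brightest probe of each matched gene in the pathway and marker lists, with the number of matched genes in brackets and a black line at the median of the list. Red points are the 9 genes with an unadjusted p below 0.05. The 7 pathway lists with matched genes have medians between -0.07 and 0.14, while the stroma list lies lowest (-0.63) and the endothelium list highest (0.43, or 0.10 without CONT cow 8027).

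Markers of other cell types were read for the composition of the biopsies. The pan-leukocyte list (8 of 8 matched genes detected) was even, with 4 genes higher, 4 lower and a median of -0.02, and *PTPRC* and *LCP1* at log2 FC of -0.34 and 0.30. T cell markers had a median of -0.07 over 10 genes, although *CD3D*, a chain of the T cell receptor complex, had a log2 FC of 0.60 (unadjusted limma p = 0.040, exact permutation p = 0.0563). Macrophage and dendritic markers (median -0.06, *CD163* 0.85 and *CD14* 0.37) and neutrophil markers (median 0.19, *CXCR1* -1.03 and *MMP9* 0.39) held no gene below 0.05. Luminal epithelium, the cells that express *PIGR*, had 9 of 11 markers higher, a median of 0.20 and none below 0.05, with *KRT18* at -0.49 and *KRT19* at 0.48. The mean level of that list was 5.72 to 6.27 in CONT and 5.85 to 6.55 in REST.

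With all cows included, the list medians farthest from 0 were those of stroma and endothelium. In stroma, 5 of 6 markers were lower in REST (median -0.63), and 3 had an unadjusted p below 0.05, the collagen genes *COL1A1* (-0.72) and *COL1A2* (-0.65) and *LUM* (-0.84), which encodes lumican (exact permutation p = 0.0649, 0.0325 and 0.00866). Endothelium had all 6 markers higher (median 0.43), with *VWF*, the von Willebrand factor, at 0.79 (p = 0.0232, exact permutation p = 0.00649). Without CONT cow 8027 that median was 0.10 and the value of *VWF* 0.50, and the median of stroma was -0.59, with unadjusted limma p-values of 0.0499 for *COL1A1*, 0.0612 for *COL1A2* and 0.0105 for *LUM*. Myoepithelial markers had a median of -0.20 (*MYLK* -0.21, *OXTR* -0.50), adipocyte markers 0.25 (*FABP4* 1.20) and erythroid markers -0.0043 (*HBA* 0.13, *HBM* 0.67), with none below 0.05. Without CONT cow 8027 the adipocyte median was 0.31 and *FABP4* 0.59. The part of these shifts in the levels of the B cell and plasma cell genes was not tested.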

How the data were processed

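The one-color bovine arrays (Agilent) were hybridized with RNA of 1 cow each, 100 ng of total RNA from about 50 mg of tissue. The deposited intensity is the signal of each spot that the authors' Feature Extraction (version 11.0.1.1) gave once the local background had been corrected, spatial trends removed and dim values replaced, and arrays were not normalized to each other. The matrix deposited by the authors holds the same intensity values (largest difference 0).

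From these, control spots were left out, outlier spots were set to missing (205 of 43653 probes had a missing value), and log2 intensity minus the array's 75th percentile was averaged over the spots of a probe. A gene is represented by its probe of highest mean signal. The study's methods state this shift and a moderated test with Westfall-Young adjustment. With that test the study reported genes that differed between the diets, and its list of known ones held none of the genes described here. Here REST and CONT were compared, without covariates, with limma 3.58.1 (R 4.3.3, lmFit and eBayes, two-sided) and Benjamini-Hochberg adjustment at 0.05 over all probes, and Westfall-Young with 100 of the 462 distinct regroupings was an alternative. Exact permutation tests enumerate all divisions of the cows (smallest p = 0.00216), and correlations used 100000 permutations (Python 3.11.15, scipy 1.17.1). The number of arrays limits the precision. Each cow is 1 replicate, and replicate numbers were given in label order.

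The fit was tested on simulated data with independent noise for each probe and no slide effect, so that test does not cover the uneven slides. Members and lists were chosen with earlier results of these data known. Named list genes are those with an unadjusted p below 0.05 (at most 4 a list), or otherwise the 2 of largest log2 FC among those detected on every array of a diet. For *JCHAIN* and *PIGR*, the 5 genes of highest r are named. A probe's gene came from the RefSeq table (26832 probes named). The array annotation and that table belong to different assemblies, so no positions are given. The alternatives were quantile normalization, normexp (offset 50, on median spot and background signals), the deposited matrix, a filter on dim probes, outlier spots kept, the slide as a block or taken alone, an intensity trend, the mean over probes and leaving out each cow. Leaving out cows 8027 and 1018 together, and the correlations after quantile normalization or after array intensity, were added once values had been seen.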

Additional observations from a re-analysis of the deposited data

Results flagged for a closer look

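Among the 34 groups of 6 values (17 probes in 2 diets), 2 held a value far from the others by Dixon's test at its 95% level, and chance flags about 1 in 20 groups, or 1.7 here. The *MZB1* probe was at -1.45 in CONT cow 8027, where the next lowest CONT value was 0.12, and the spot was well above background. A dim *PRDM1* probe was at -4.81 in CONT cow 1076, where the next lowest CONT value was -3.99, and that spot was not well above background.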

How the results depend on the processing

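No probe of the 8 genes passed the Benjamini-Hochberg threshold under any alternative run, nor with Westfall-Young adjustment, where the lowest adjusted p of a member probe was 1. The count of genes with an unadjusted p below 0.05, which was 2, was 0 with normexp, 0 without cows 8027 and 1018 together, 1 with the slide as a block (*MS4A1*), 1 with the filter on dim probes (*POU2AF1*, since *MS4A1* was removed and has no value there), and 1 to 2 when each cow was left out in turn. The median log2 FC of the 8 genes ranged from -0.03 to 0.17 over those leave-one-out fits and was 0.26 with the mean over probes, where 6 of the 8 genes were higher in REST and *CD79A* had 0.38. The count of 9 list genes was 15 with an intensity trend, 4 with the slide as a block and 3 to 12 with each cow left out. Pairs with r over 0.5, 9 of 28, were 15 after diet and slide means were removed, 8 after a line on array intensity and 3 without cows 8027 and 1018. Directions reversed for *IRF4* with the mean over probes (0.0070). That mean takes in dim probes, as it does for *CD79A*. On leaving out 1 cow, directions reversed for *JCHAIN* (0.0085 without CONT cow 0055, 0.046 without REST cow 1018) and *MZB1* (-0.066 without CONT cow 8027). They also did for *PIGR* (0.11 without REST cow 1018) and *PRDM1* (-0.0062 without REST cow 1058). With slides taken alone, the sign also turned for *CD79A* (-0.26 on slide 1), *IRF4* (0.50 on slide 2), *POU2AF1* (-0.21 on slide 2), *PIGR* (0.74 on slide 2), *MZB1* (-0.31 on slide 1) and *PRDM1* (-0.24 on slide 1). The leave-one-out ranges were -0.35 to 0.05 for *JCHAIN*, -0.07 to 0.36 for *MZB1*, -0.63 to 0.11 for *PIGR*, -0.01 to 0.13 for *PRDM1*, 0.0047 to 0.22 for *CD79A*, -0.59 to -0.04 for *IRF4* and 0.72 to 1.16 for *POU2AF1*. The cause of these changes was not tested. Without CONT cow 8027, the median of the endothelium list was 0.10 in place of 0.43, a check added once values had been seen. Signal over background limits *MS4A1* and the dim probes. No paired analysis was possible because the cows of the 2 diets were different animals, and the labels link none of them.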
